A study of Mus musculus with 6 samples.

Results

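The p53 target genes were described as a list of 30 genes in murine malignant mesothelioma AB22 cells. The cells carried a control hairpin or a hairpin against Hmgb1. Whether p53 raises each listed gene in these mouse cells was not tested. The members were taken by gene symbol, and all 30 of them had a row among the 12134 genes of the deposited table. All 30 also passed the filter on low values, a mean of at least 0.5 RPKM (reads scaled to gene length and to library size) over the 6 libraries, which left 11669 genes. Both groups of cells carried a doxycycline-inducible pTRIPZ lentiviral vector, delivered at a multiplicity of infection of 20 followed by selection with puromycin at 4 µg/mL, and 1 µM doxycycline was added for 7 to 10 days at 5% oxygen. The shCTRL vector expressed a control hairpin and the shHMGB1 vector a hairpin against Hmgb1, which encodes an abundant DNA-bending chromatin protein, and 3 biological replicates, A, B and C, were sequenced in each group. RNA came from cells synchronized in G1. As the labels list no dose for these samples, the comparison asks how transcripts differ with the hairpin against Hmgb1 without irradiation. Effects of lower Hmgb1 and other effects of this hairpin cannot be told apart here. The sources used here do not say whether replicates were separate infections, and p-values therefore cover only the variation among these cultures. Where 3 values of a group are given, they stand in the order of replicates A, B and C.

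The transcription factor p53, encoded by Trp53 in the mouse, is held low by the ubiquitin ligase Mdm2 and its partner Mdm4 and is freed after DNA damage or oncogenic stress. It then binds pairs of like decamers in DNA and raises genes that stop the cell cycle, trigger apoptosis, repair DNA or adjust metabolism, Mdm2 among them, which closes a feedback loop. Through the kinase inhibitor p21, the product of Cdkn1a, it also represses cell cycle genes bound by the DREAM complex. In mesothelioma the pathway is known to be weakened often by loss of Cdkn2a, whose Arf product restrains Mdm2.

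Sequence shows where in the promoter some of these genes carry a match to the p53 element, and 3 are printed. Cdkn1a and Ccng1 had the nearest matches among the members. Ckap2 holds a p53 match and, like Bax and Aen, the letters TTTGAA of a cell cycle motif. RefSeq promoter windows (GRCm38.p6, 250 bases before to 50 after the annotated start, 300 bases in all) were matched for 22 of the 30 members, with 28 windows. Each was searched on the printed strand for a pair of p53 consensus decamers 0 or 1 bases apart whose core C and G were intact. A pair is nearly palindromic, so the other strand gives much the same match. The known p53 elements of Mdm2 lie in an intron, outside these windows. In capitals are the decamers of the best match, with 1 mismatch in Cdkn1a, 1 in Ccng1 and 2 in Ckap2.
Cdkn1a, chr17:29090729-29091028, plus strand: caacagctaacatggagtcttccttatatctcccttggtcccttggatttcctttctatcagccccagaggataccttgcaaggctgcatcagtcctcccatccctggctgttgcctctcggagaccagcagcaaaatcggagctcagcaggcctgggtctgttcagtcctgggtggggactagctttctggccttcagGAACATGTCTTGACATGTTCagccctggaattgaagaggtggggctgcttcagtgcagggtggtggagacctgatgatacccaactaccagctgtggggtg
Ccng1, chr11:40755237-40755536, minus strand: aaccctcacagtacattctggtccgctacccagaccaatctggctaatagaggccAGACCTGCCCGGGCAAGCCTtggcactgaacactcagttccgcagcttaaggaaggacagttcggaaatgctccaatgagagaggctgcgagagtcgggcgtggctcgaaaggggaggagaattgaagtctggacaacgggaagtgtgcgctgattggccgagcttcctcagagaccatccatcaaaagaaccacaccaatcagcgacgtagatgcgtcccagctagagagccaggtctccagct
Ckap2, chr8:22185770-22186069, minus strand: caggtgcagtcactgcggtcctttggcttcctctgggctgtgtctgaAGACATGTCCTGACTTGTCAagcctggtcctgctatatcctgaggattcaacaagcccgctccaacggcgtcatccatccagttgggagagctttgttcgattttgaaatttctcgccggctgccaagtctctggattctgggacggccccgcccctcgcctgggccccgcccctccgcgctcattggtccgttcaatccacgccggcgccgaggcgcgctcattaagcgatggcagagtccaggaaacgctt
The pair began 51 bases upstream of the first annotated start in Cdkn1a, 195 in Ccng1 and 203 in Ckap2. Cdkn1a has another window at a start further downstream (chr17:29093519-29093818), where the best match had 7 mismatches. Ckap2 also holds the motif TTTGAA, known as a cell cycle homology region, beginning 101 bases upstream of its start. In Bax, shown next, TTTGAA runs across the spacer of the p53 pair, and 1 of the windows of Aen holds it too. It was found for 4 of the 22 matched members, or in 14.3% of their windows, against 17.9% of all windows. Pairs with 2 or 3 mismatches were found in 6 further members, shown because they span the apoptosis and metabolism groups, with the spacer base in lower case.
Bax, chr7:45467079-45467099, minus strand: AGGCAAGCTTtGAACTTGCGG
Bbc3, chr7:16309486-16309505, plus strand: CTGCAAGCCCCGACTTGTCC
Aen, chr7:78895937-78895956, plus strand: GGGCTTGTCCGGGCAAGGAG
Sesn1, chr10:41887266-41887285, plus strand: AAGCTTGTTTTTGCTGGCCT
Tigar, chr6:127109746-127109765, minus strand: GGTCTAGCTCTGGCAAGACT
Dcxr, chr11:120727386-120727406, minus strand: AGCCTTGCCTcGGTCACGCCC
A pair with at most 3 mismatches was thus present for 9 of the 22 matched members, or in 10 of 28 windows (35.7%), against 2.82% of the 32851 promoter windows of the table. Many p53 targets are known through such elements, and the share is no test of binding in AB22 cells. No match in a window says only that these letters are not there. Matched members without such a pair were Mdm2, Gadd45a, Btg2, Plk2, Plk3, Fas, Eda2r, Ei24, Pidd1, Phlda3, Polk, Sesn2 and Ephx1. No window was matched for Pmaip1, Tnfrsf10b, Perp, Trp53inp1, Zmat3, Ddb2, Xpc and Rrm2b.

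The libraries held 12869533 to 23429362 reads over the listed genes, recovered from the steps between low values, and the members had 17 to 7794 reads each in a library. Hmgb1 measured 33.4, 45.5 and 31.9 RPKM with shCTRL against 7.18, 5.79 and 3.80 RPKM with shHMGB1 (log2 fold change -2.73 ± 0.26 SE, limma with Benjamini-Hochberg adjustment, adjusted p = 0.0269). The groups were far apart, but leaving out shCTRL A, shCTRL B, shCTRL C or shHMGB1 B singly ended the call (limma adjusted p = 0.138, 0.247, 0.116 and 0.197). Reads on the 18S ribosomal RNA sequence Rn18s-rs5 made up 1.62%, 3.79% and 0.170% of the listed reads with shCTRL against 0.668%, 0.199% and 0.0439% with shHMGB1. Replicates of 1 group thus differed widely in this share, and shHMGB1 replicate C had the least. A further ribosomal RNA sequence, AY036118, had more reads than Rn18s-rs5 in every library. Its reads were 1026252, 2197598 and 174591 with shCTRL against 605426, 182687 and 23277 with shHMGB1. The listed reads, both ribosomal sequences included, were 13857048, 12869533 and 23429362 with shCTRL against 18815542, 20369073 and 15094910 with shHMGB1. Of 14 mesothelial markers 5 were tested, Msln, Bnc1, Pdpn, Efemp1 and Gas1, while Wt1, Upk3b and Calb2 were not among the genes analysed. All 5 had negative log2 fold changes, with mesothelin, encoded by Msln, at 67.2 ± 13.6 RPKM for shCTRL against 32.9 ± 5.66 RPKM for shHMGB1 (SD, n = 3 each, limma adjusted p = 0.249). Of the 18 leukocyte, endothelial and epithelial markers, Lyz2, Kdr and Cdh1 were listed, at group means from 0.322 to 2.44 RPKM.

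No p53 target passed the threshold of 0.05 after adjustment over all genes. In limma 0 of the 30 were called in either direction, where 0.0257% of all tested genes were called (3 genes, all lower), and voom on the recovered reads also called 0 of the 30. The adjusted p-values of the members ran from 0.395 for Fas to 0.983 for Phlda3. An unadjusted p under 0.05 was reached by 7.91% of all tested genes in either direction. Of the members, 4 reached it with higher values in shHMGB1 (13.3%, against 3.78% of all tested genes) and 0 with lower values (4.13% of all). These 4, Fas, Tnfrsf10b, Pmaip1 and Ei24, all belong to the apoptosis group.

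The members' log2 fold changes were positive for 21 and negative for 9 of 30, so 70.0% were positive against 51.7% of all tested genes, and all 30 were positive when libraries were rescaled to equal sums, which moved the median of all genes to 0.36. The members' median without that rescaling was 0.17, beside 0.01 over all tested genes. By role, the median was 0.34 for 8 arrest and feedback genes, 0.14 for 13 apoptosis genes, 0.01 for 4 repair genes and 0.15 for 5 metabolic genes. These are descriptions of a list chosen with results of these data known. Groups that did not overlap were found for 14% of all tested genes in either direction. They were found for 5 members with higher shHMGB1 values (16.7%, against 6.9% of all tested genes) and for 2 members with lower values (6.67%, against 7.07%). The 5 were Mdm2 and the apoptosis genes named above, and the 2 were Perp and Ephx1. The 95% interval lay within a log2 fold change of 1 in both directions for 20 of the 30 members (66.7%, against 74.6% of all), so for these a change beyond a doubling lies outside the interval.

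**Figure D1:**
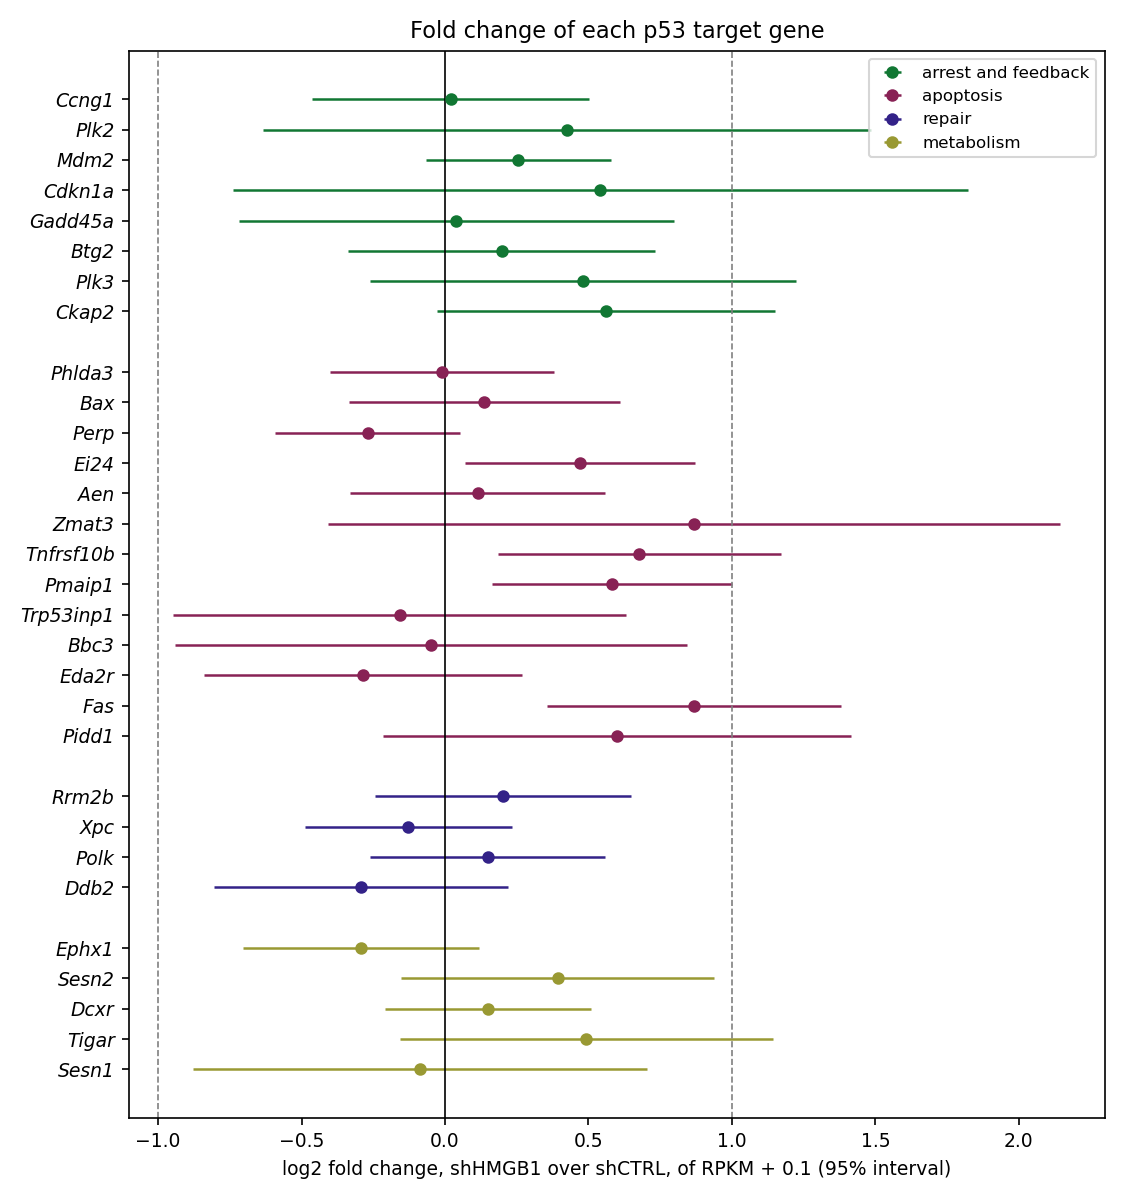
Log2 fold change of RPKM + 0.1 in shHMGB1 over shCTRL for each of the 30 p53 targets, by role, with points for limma estimates, bars for 95% intervals and dashed lines at log2 fold changes of -1 and 1. Only Fas, Tnfrsf10b, Pmaip1 and Ei24 have intervals that leave out 0, and Cdkn1a and Zmat3 have the widest.

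Replicates of the members varied about as much as those of other genes, with a median within-group SD of 0.269 on the log2(RPKM + 0.1) scale against 0.263 over all tested genes. In 24 of the 30 members the range within a group, as highest over lowest library, was wider in fold than the ratio of the group means, and in 17 it was wider in both groups. The exceptions were Mdm2, Pmaip1, Fas, Tnfrsf10b, Perp and Ei24. The share over all tested genes is not given for these counts, so they cannot be read as particular to the members. Within-group spread of Cdkn1a, Zmat3 and Plk2 stood above the 90th percentile of all tested genes, and that of Mdm2, Xpc and Perp below the 10th percentile.

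**Figure D2:**
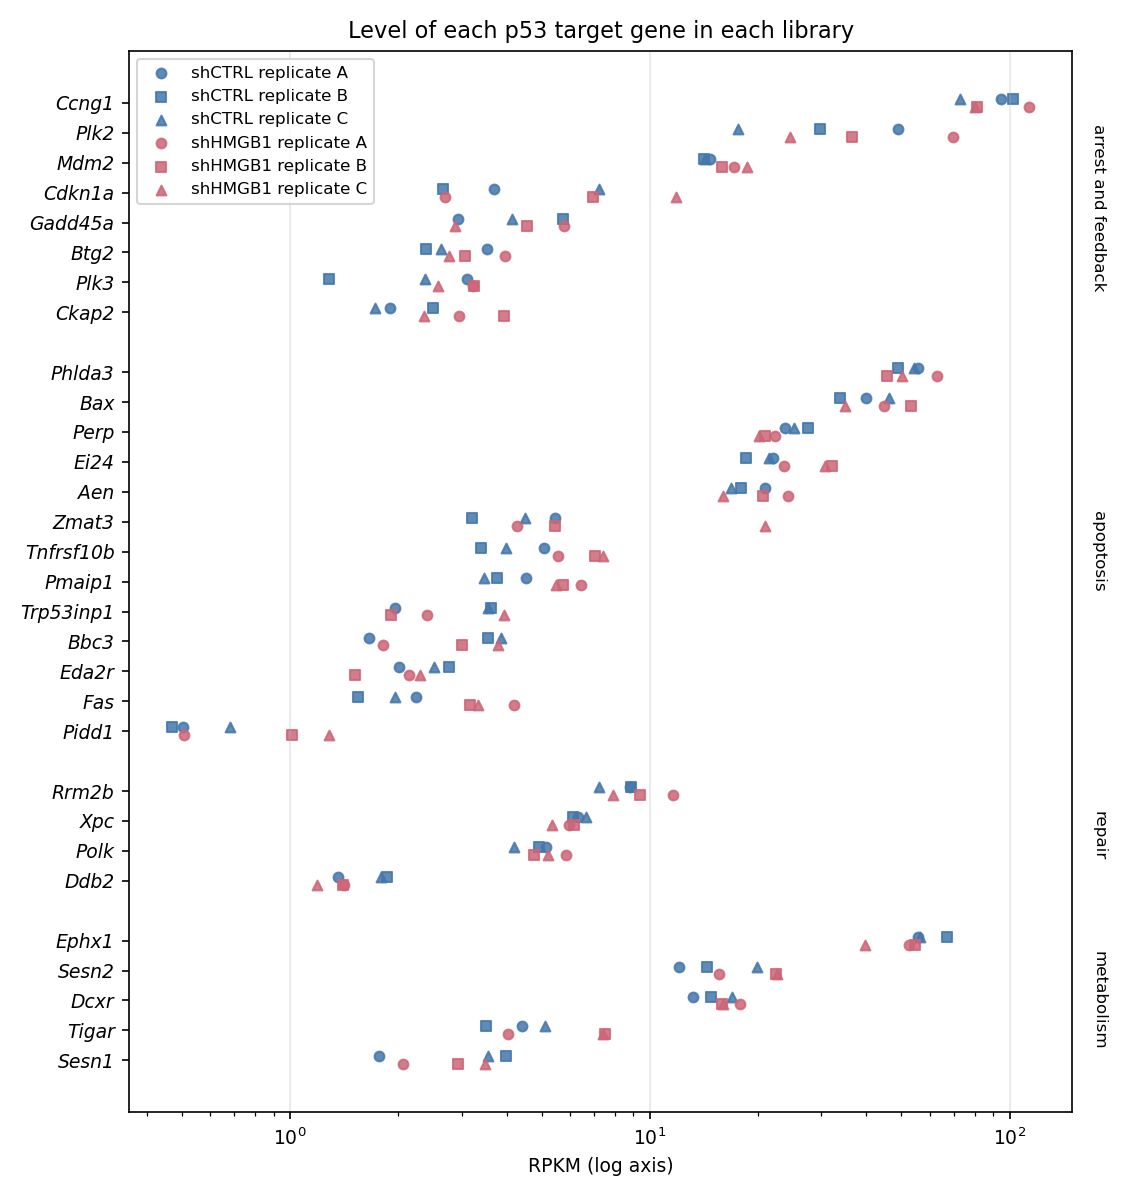
RPKM on a log axis of each p53 target in each of the 6 libraries, with colour for the group and symbol for the replicate, ordered within each role by the shCTRL mean. Levels run from Pidd1, under 1 RPKM in shCTRL, to Ccng1 at about 90.1 RPKM, and most genes show both groups intermingled.

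Among arrest and feedback genes, Cdkn1a encodes p21, the inhibitor of cyclin-dependent kinases that carries out p53-dependent G1 arrest. It measured 3.68, 2.65 and 7.24 RPKM with shCTRL against 2.70, 6.97 and 11.8 RPKM with shHMGB1. The groups overlapped widely, with shCTRL replicate C above 2 of the shHMGB1 libraries and shHMGB1 replicate A as low as shCTRL replicate B. Its log2 fold change was 0.54 ± 0.55 (SE; interval of 95%, -0.74 to 1.82; limma adjusted p = 0.779). Without shHMGB1 replicate C it was 0.07, and without shHMGB1 replicate A 1.11. Cdkn1a lies on chromosome 17 (29090976 to 29100727, plus strand, GENCODE M21 on GRCm38), and 273 of its exonic bases are shared with an annotated gene on the other strand.

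Trp53 itself had a similar order of libraries. It measured 10.1, 6.26 and 16.0 RPKM with shCTRL against 7.05, 17.6 and 18.02 RPKM with shHMGB1 (log2 fold change 0.38 ± 0.44 SE, limma adjusted p = 0.796). For both genes shCTRL replicate C and shHMGB1 replicates B and C were the 3 high libraries, and shCTRL replicates A and B and shHMGB1 replicate A the 3 low ones. The same 3 high libraries had the lowest shares of Rn18s-rs5 reads. With the Rn18s-rs5 level as a covariate, chosen after seeing the data, the log2 fold change of Cdkn1a was -0.45 (limma adjusted p = 0.698). The interval without the covariate, -0.74 to 1.82, already held both signs. Rn18s-rs5 itself had a mean of 29323 RPKM for shCTRL against 4065 RPKM for shHMGB1. Group and covariate thus cannot be cleanly separated in 6 libraries, and a part of Rn18s-rs5 in the Cdkn1a values was not tested.

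**Figure D3:**
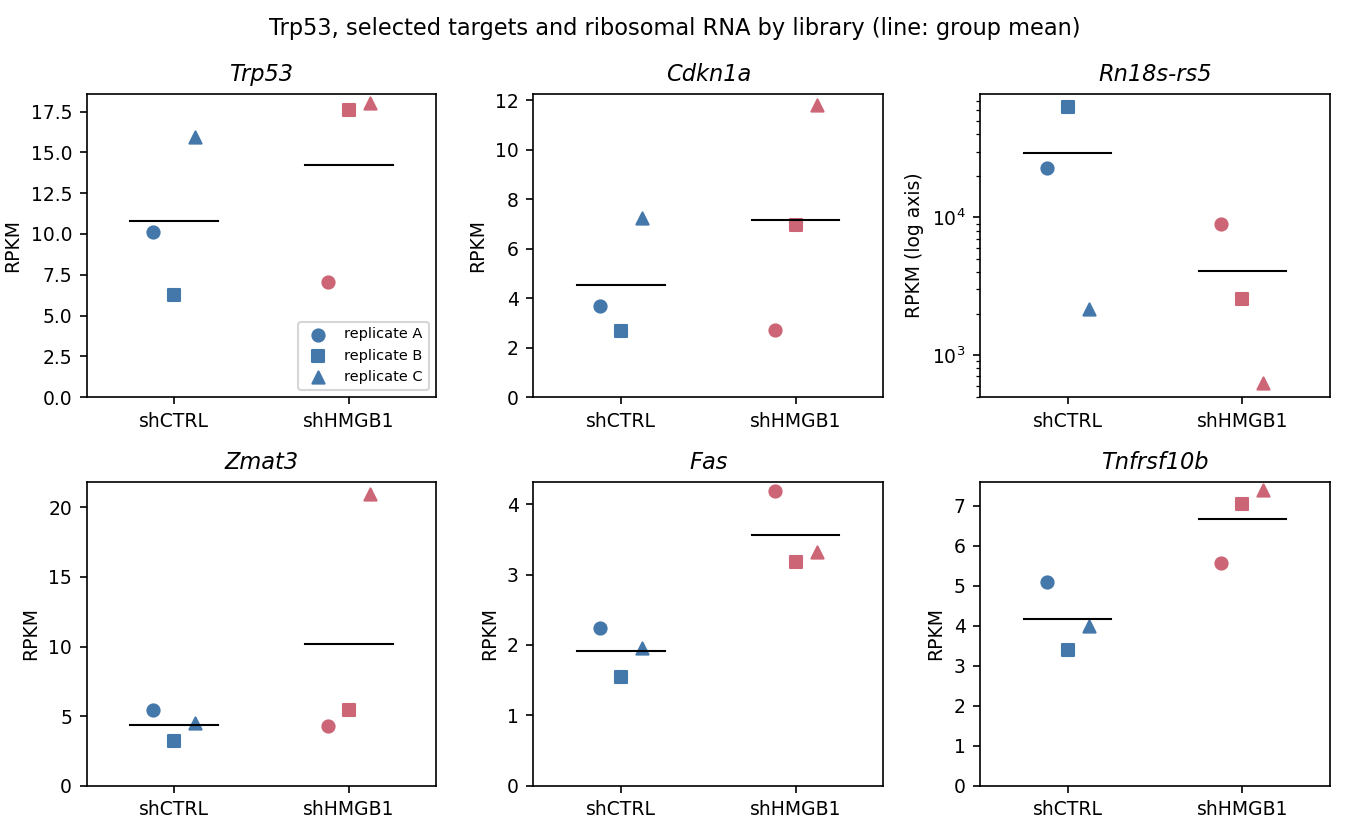
RPKM by library of Trp53, Cdkn1a, Rn18s-rs5 on a log axis, Zmat3, Fas and Tnfrsf10b, with symbols for replicates and a line at each group mean. Trp53 and Cdkn1a are high in shCTRL replicate C and shHMGB1 replicates B and C, where Rn18s-rs5 is low, Zmat3 is high in shHMGB1 replicate C, and the groups of Fas and Tnfrsf10b do not overlap.

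Mdm2, the ubiquitin ligase of the feedback loop, varied less than nearly all genes. Its values were 14.7, 14.2 and 14.2 RPKM in shCTRL and 17.1, 15.9 and 18.6 RPKM in shHMGB1, so that every shHMGB1 library lay above every shCTRL library. The difference was small, with a log2 fold change of 0.26 ± 0.14 (SE; 95% interval -0.07 to 0.58), and did not pass (limma adjusted p = 0.699). Ccng1 encodes cyclin G1, which recruits a phosphatase that acts on Mdm2. It was the most abundant member, with 94.9, 103 and 72.9 RPKM in shCTRL and 114, 81.2 and 80.1 RPKM in shHMGB1. Its groups overlapped, with shHMGB1 replicate A highest and shCTRL replicate C lowest, and its log2 fold change of 0.02 had an interval from -0.46 to 0.50.

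The remaining arrest genes also overlapped between groups. Plk2, a polo-like kinase of the centrosome and stress response, measured 49.1, 29.7 and 17.6 RPKM in shCTRL and 69.7, 36.4 and 24.5 RPKM in shHMGB1. Highest over lowest library was 2.79 in shCTRL and 2.84 in shHMGB1, and replicate A was highest and C lowest in both. Its log2 fold change was 0.42 ± 0.46 (SE, limma adjusted p = 0.785), and 0.48 ± 0.32 (SE) for the related kinase gene Plk3, which ranged from 1.28 to 3.24 RPKM. Over the alternatives Plk2 ran from 0.018 (without shHMGB1 replicate A) to 1.13 (with the Rn18s-rs5 covariate). Plk3 ran from 0.14 (without shCTRL replicate B) to 0.82 (with equal sums). Gadd45a, a stress sensor that binds PCNA and activates stress kinases, ranged from 2.87 to 5.79 RPKM with both extremes in shHMGB1 libraries (log2 fold change 0.04). The antiproliferative gene Btg2 ranged from 2.39 to 3.96 RPKM (log2 fold change 0.20 ± 0.23 SE). All 8 log2 fold changes of these arrest and feedback genes were positive, against 51.7% of all tested genes. Over the alternatives the sign changed in 4 settings for Gadd45a, 3 for Ccng1 and 1 for Cdkn1a. Only Mdm2 among them had groups that did not overlap, as 14% of all tested genes had in either direction.

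Ckap2 encodes a spindle protein that peaks in mitosis and is counted among p53 targets. It measured 1.89, 2.49 and 1.73 RPKM in shCTRL and 2.95, 3.93 and 2.36 RPKM in shHMGB1, with shHMGB1 replicate B highest. Its log2 fold change was 0.56 ± 0.25 (SE; interval of 95%, -0.03 to 1.15; limma adjusted p = 0.65), and 0.38 without shHMGB1 replicate B. Its promoter, printed above with the p53 pair in capitals, shares TTTGAA on either strand with 15 of the 24 DREAM-repressed cell cycle genes that had a window.

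The lowest unadjusted p-values of the 30 members belonged to the apoptosis genes Fas, Pmaip1 and Tnfrsf10b, and 2 of these encode death receptors. Fas encodes the receptor of Fas ligand, which triggers caspase-8. It measured 2.24, 1.54 and 1.96 RPKM in shCTRL (55, 30 and 90 reads) and 4.19, 3.17 and 3.33 RPKM in shHMGB1 (147, 126 and 89 reads), so the lowest shHMGB1 library stood above the highest shCTRL library. Its log2 fold change was 0.87 ± 0.22 (SE; interval of 95%, 0.35 to 1.38; limma adjusted p = 0.395), and it stayed between 0.65 and 1.21 over the 18 alternatives that tested it, with 0 calls. Fas lies on chromosome 19 (34290666 to 34327772, plus strand).

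Tnfrsf10b encodes the mouse receptor for the death ligand TRAIL and lies on chromosome 14 (69767472 to 69784411, plus strand). It measured 5.09, 3.40 and 3.99 RPKM in shCTRL and 5.57, 7.05 and 7.39 RPKM in shHMGB1. The groups were apart by a narrow margin, between shCTRL replicate A and shHMGB1 replicate A. Its log2 fold change was 0.68 ± 0.21 (SE; interval of 95%, 0.18 to 1.17; limma adjusted p = 0.509). In a bulk sample, more cells with a transcript and more transcript per cell cannot be told apart.

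Among mitochondrial regulators, Pmaip1 encodes Noxa, a BH3-only protein that blocks Mcl1. It measured 4.53, 3.76 and 3.47 RPKM in shCTRL and 6.45, 5.75 and 5.49 RPKM in shHMGB1, with the groups apart. Its log2 fold change was 0.58 ± 0.18 (SE; 95% interval 0.16 to 1.00; limma adjusted p = 0.507). Bbc3 encodes Puma, another BH3-only protein, and measured 1.66, 3.56 and 3.87 RPKM in shCTRL and 1.81, 3.00 and 3.78 RPKM in shHMGB1. In both groups replicate A was lowest and C highest, and the log2 fold change was -0.05 with an interval from -0.94 to 0.84. Bax, the effector that permeabilizes the outer mitochondrial membrane, had a mean of 40.04 ± 6.30 RPKM for shCTRL against 44.3 ± 9.13 RPKM for shHMGB1 (SD, n = 3 each; log2 fold change 0.14 ± 0.20 SE). So, of these 3 genes, only Pmaip1 had groups that did not overlap.

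Ei24, a membrane protein gene of the endoplasmic reticulum linked to autophagy and cell death, measured 22.003, 18.5 and 21.4 RPKM in shCTRL and 23.5, 32.2 and 30.8 RPKM in shHMGB1. The groups did not overlap, with shHMGB1 replicate A just above the shCTRL libraries (log2 fold change 0.47 ± 0.17 SE; 95% interval 0.07 to 0.87; limma adjusted p = 0.574). It shares 324 exonic bases with a gene on the other strand in GENCODE M21. The sources used here do not say which gene model the authors counted or whether their counting used strand. The recovered length of Ei24 was 2429 bases against 4868 exonic bases in GENCODE M21, so the shared bases may not have been counted. Exonic bases were shared with another annotated gene for 9 of the 30 members in all. Perp, which encodes a tetraspan protein of desmosomes, went the other way with 23.8, 27.5 and 25.2 RPKM in shCTRL and 22.3, 20.96 and 20.1 RPKM in shHMGB1. Each shHMGB1 library lay below each shCTRL library, by a log2 fold change of -0.27 ± 0.14 (SE; 95% interval -0.59 to 0.05; limma adjusted p = 0.687).

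Zmat3, also called Wig1, encodes a zinc finger protein that binds RNA and affects splicing and stability. It measured 5.44, 3.20 and 4.49 RPKM in shCTRL and 4.27, 5.44 and 20.9 RPKM in shHMGB1, so that a single library carried the difference. Its log2 fold change was 0.87 ± 0.55 (SE; interval of 95%, -0.41 to 2.14; limma adjusted p = 0.722) with all libraries and 0.17 without shHMGB1 replicate C. That library had 2431 reads on Zmat3, against 271 to 937 in the others. Pidd1, which encodes a scaffold of the PIDDosome that activates caspase-2, was the least abundant member, with 0.504, 0.470 and 0.680 RPKM in shCTRL and 0.507, 1.014 and 1.28 RPKM in shHMGB1. Its shHMGB1 replicate A lay within the shCTRL range, and its 17 to 75 reads per library limit its precision. For Pidd1 the log2 fold change was 0.60 ± 0.35 (SE) and ran from 0.15 with the Rn18s-rs5 covariate to 0.94 without shHMGB1 replicate A.

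In the other apoptosis genes, Phlda3, Aen, Trp53inp1 and Eda2r, the groups overlapped. Phlda3, whose product competes with Akt for membrane lipids, averaged 53.03 ± 3.51 RPKM for shCTRL against 52.99 ± 8.95 RPKM for shHMGB1 (SD, n = 3 each). Its log2 fold change of -0.01 had a 95% interval from -0.40 to 0.38. The nuclease gene Aen ranged from 15.9 to 24.2 RPKM with both extremes in shHMGB1 (log2 fold change 0.11). Trp53inp1, whose product promotes p53 phosphorylation and autophagy, ranged from 1.90 to 3.94 RPKM, also with both extremes in shHMGB1 (log2 fold change -0.16). Eda2r, an ectodysplasin receptor gene, measured 2.43 ± 0.383 RPKM and 1.99 ± 0.417 RPKM (SD, n = 3 each; log2 fold change -0.29 ± 0.24 SE).

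The groups of all 4 repair genes overlapped, as for most tested genes. Their median of 0.01 was -0.07 after quantile normalization. With genes of at least 5 RPKM it was 0.15, but that filter leaves out Ddb2, so the set of genes differs. Xpc and Ddb2 encode sensors of DNA lesions in nucleotide excision repair, Polk a translesion polymerase and Rrm2b the p53-inducible ribonucleotide reductase subunit. Xpc measured 6.31, 6.13 and 6.67 RPKM in shCTRL and 5.95, 6.17 and 5.36 RPKM with shHMGB1 (log2 fold change -0.13 ± 0.16 SE, 95% interval -0.49 to 0.23). Ddb2 measured 1.36, 1.87 and 1.79 RPKM in shCTRL and 1.41, 1.41 and 1.19 RPKM in shHMGB1, from 41 to 106 reads per library (log2 fold change -0.29 ± 0.22 SE). The groups of both genes overlapped. Ddb2 shares 652 exonic bases with Acp2 on the other strand in GENCODE M21, which can make its level uncertain. Whether these bases were counted is not known, as its recovered length was 2325 bases against 2736 exonic bases there. Polk had 4.75 ± 0.504 RPKM in shCTRL and 5.28 ± 0.550 RPKM in shHMGB1, with a log2 fold change of 0.15 ± 0.18 (SE). Rrm2b measured 8.84, 8.88 and 7.23 RPKM in shCTRL and 11.6, 9.42 and 7.92 RPKM in shHMGB1, which overlap (log2 fold change 0.20 ± 0.19 SE). For all 4 the 95% interval lay within a log2 fold change of 1.

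Metabolic targets divided by direction, and none was past the threshold. Tigar, a phosphatase that lowers fructose-2,6-bisphosphate and so slows glycolysis, measured 4.42, 3.51 and 5.10 RPKM in shCTRL and 4.04, 7.51 and 7.40 RPKM in shHMGB1. Its shHMGB1 replicates B and C lay above every shCTRL library and replicate A within them (log2 fold change 0.49 ± 0.28 SE; 95% interval -0.16 to 1.14). The sestrins restrain mTORC1, Sesn2 as a leucine sensor. Sesn2 measured 12.1, 14.4 and 19.9 RPKM in shCTRL and 15.6, 22.5 and 22.6 RPKM with shHMGB1 (log2 fold change 0.39 ± 0.24 SE). Sesn1 measured 1.77, 3.99 and 3.54 RPKM and 2.06, 2.92 and 3.47 RPKM, with replicate A lowest in both groups (log2 fold change -0.09 ± 0.34 SE). The sestrin genes thus both had overlapping groups. With the Rn18s-rs5 covariate the log2 fold change of Tigar was 0.12 and that of Sesn2 0.075, and with equal sums they were 0.84 and 0.75.

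Ephx1 and Dcxr encode detoxifying enzymes, microsomal epoxide hydrolase and a carbonyl and xylulose reductase. Ephx1 measured 55.5, 66.8 and 56.5 RPKM in shCTRL and 52.6, 54.4 and 39.8 RPKM in shHMGB1, so each shHMGB1 library lay below each shCTRL library (log2 fold change -0.29 ± 0.18 SE; 95% interval -0.70 to 0.12; limma adjusted p = 0.719). Dcxr averaged 15.0 ± 1.88 RPKM for shCTRL against 16.5 ± 1.09 RPKM for shHMGB1 (SD, n = 3 each; log2 fold change 0.15 ± 0.15 SE), and its groups overlapped.

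The 30 members did not share 1 pattern across libraries. Median deviations from each gene's mean, on the log2(RPKM + 0.1) scale, were -0.10, -0.10 and -0.02 with shCTRL against 0.10, 0.09 and 0.04 with shHMGB1. All 3 shHMGB1 medians lay above the 3 shCTRL medians, by a small margin between the C replicates. Groups also did not overlap for 14% of single tested genes. Among the roles this separation held for apoptosis genes, but not for arrest, repair or metabolic genes. For arrest genes shHMGB1 replicate C had -0.09, below shCTRL replicate A at -0.01. By role, the highest library median was 0.34 in shHMGB1 replicate A for arrest genes, and 0.34 and 0.28 in shHMGB1 replicate C for apoptosis and metabolic genes. The lowest for repair genes was -0.17, also in shHMGB1 replicate C. That library was the highest for 28.9% and the lowest for 29.2% of all tested genes, so an extreme value there is not particular to these genes. The highest value of a member fell in shHMGB1 replicate A for 11 genes (36.7%, against 18.5% of all tested genes), in C for 7 (23.3%, against 28.9%), in B for 5, in shCTRL replicate B for 5 and in C for 2. The lowest fell in shCTRL replicate B for 11 (36.7%, against 20.7% of all tested genes).

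**Figure D4:**
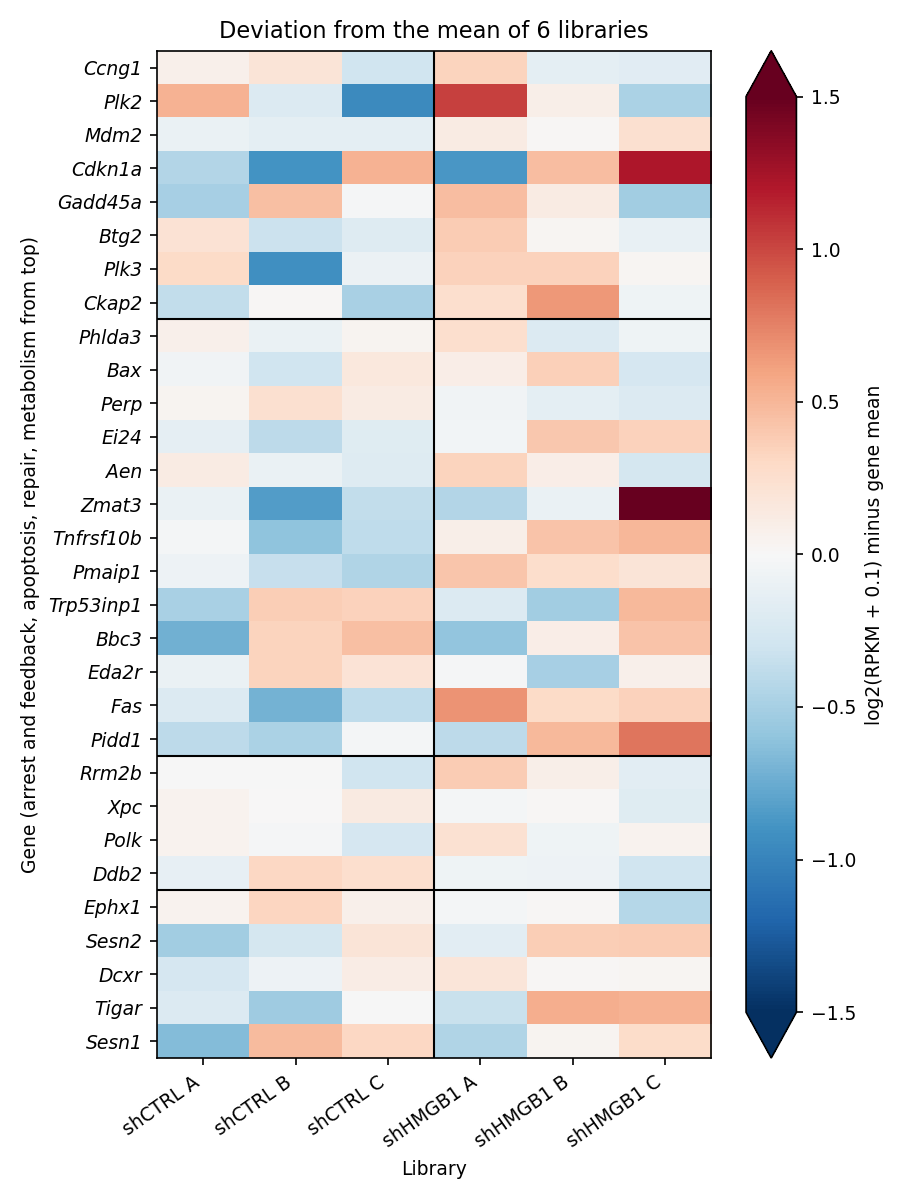
Deviation of log2(RPKM + 0.1) from each gene's mean over the 6 libraries, for the 30 targets in rows and the libraries in columns, with red for higher and blue for lower and lines between roles and groups. Zmat3 and Cdkn1a stand out in shHMGB1 replicate C, and Fas, Tnfrsf10b, Pmaip1 and Mdm2 are higher in all 3 shHMGB1 libraries.

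Regulators of p53 were compared from a separate list of 31 genes, of which 27 were tested. In limma 0 were called in either direction, 1 had higher values at an unadjusted p under 0.05 (3.7%, against 3.78% of all tested genes) and 0 had lower, and the median log2 fold change was 0.06, with 14 positive and 13 negative. Chek1, the checkpoint kinase of stalled replication, had the smallest p, at 0.669 ± 0.129 RPKM for shCTRL against 1.09 ± 0.158 RPKM for shHMGB1 (SD, n = 3 each; limma adjusted p = 0.599). Ppm1d encodes Wip1, a phosphatase that switches p53 signalling off and is itself a p53 target. It measured 3.73, 3.72 and 3.58 RPKM in shCTRL and 2.64, 3.31 and 2.85 RPKM in shHMGB1, with the groups apart (log2 fold change -0.32 ± 0.18 SE, limma adjusted p = 0.704). Mdm4, the inhibitory partner of Mdm2, had a log2 fold change of 0.10 ± 0.19 (SE), and the acetyltransferase gene Kat5 had -0.29 ± 0.16 (SE). The most abundant genes were Npm1, Rpl23 and Rpl11, whose products can bind Mdm2 or Arf under nucleolar stress, with log2 fold changes of -0.36, -0.43 and -0.20. All 3 were lowest in shHMGB1 replicate C. Cdkn2a was not analysed here.

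No other p53 target, outside the 30 members, passed the threshold. Of 66 listed genes 53 were tested, and limma called 0 in either direction, with 6 higher (11.3%, against 3.78% of all tested genes) and 1 lower (1.89%, against 4.13%) at an unadjusted p under 0.05. The median log2 fold change was 0.12. Thbs1, the gene of the matrix protein thrombospondin-1, was the most abundant, at 1220 ± 34.8 RPKM for shCTRL against 1692 ± 345 RPKM for shHMGB1 (SD, n = 3 each; log2 fold change 0.45 ± 0.21 SE). Dusp5, a phosphatase gene that acts on ERK, had a log2 fold change of 0.71 ± 0.20 (SE, limma adjusted p = 0.465). The proteoglycan gene Vcan had lower values in shHMGB1 (log2 fold change -0.92 ± 0.27 SE, limma adjusted p = 0.475), and the ribosomal protein-like gene Rps27l had -0.22 ± 0.24 (SE).

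Cell cycle genes that p53 represses through p21 and DREAM had positive log2 fold changes, but the filter and a single library limit what these show. Of 30 listed genes 24 were tested, Chek1 among them as in the list of regulators, and all 24 were positive, against 51.7% of all tested genes, with a median of 0.82. Of these, 6 (Bub1, Birc5, Aurkb, Cenpf, Ttk and Foxm1, named after their values were seen) had shCTRL means under 0.5 RPKM and passed the filter only through shHMGB1, so the count and the median cannot be read as support for a difference. In limma 0 of the 24 were called, with 8 higher and 0 lower at an unadjusted p under 0.05, against 3.78% and 4.13% of all tested genes, and Bub1 and Birc5 are among the 8. Ccnb1, the mitotic cyclin B1 gene, measured 0.387, 0.893 and 0.367 RPKM in shCTRL and 1.16, 3.20 and 1.19 RPKM with shHMGB1 (log2 fold change 1.52 ± 0.46 SE, limma adjusted p = 0.493). Aurka, a spindle kinase gene, and Mcm5, a replicative helicase gene, had log2 fold changes of 1.16 ± 0.36 and 0.95 ± 0.27 (SE). The most abundant, Anln, Rrm2 and Top2a, had 0.14, 0.09 and 0.37. For all 24 the highest library was shHMGB1 replicate B, as for Ckap2, and without it the median was 0.39. Their part in the values of Ckap2 was not tested.

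**Figure D5:**
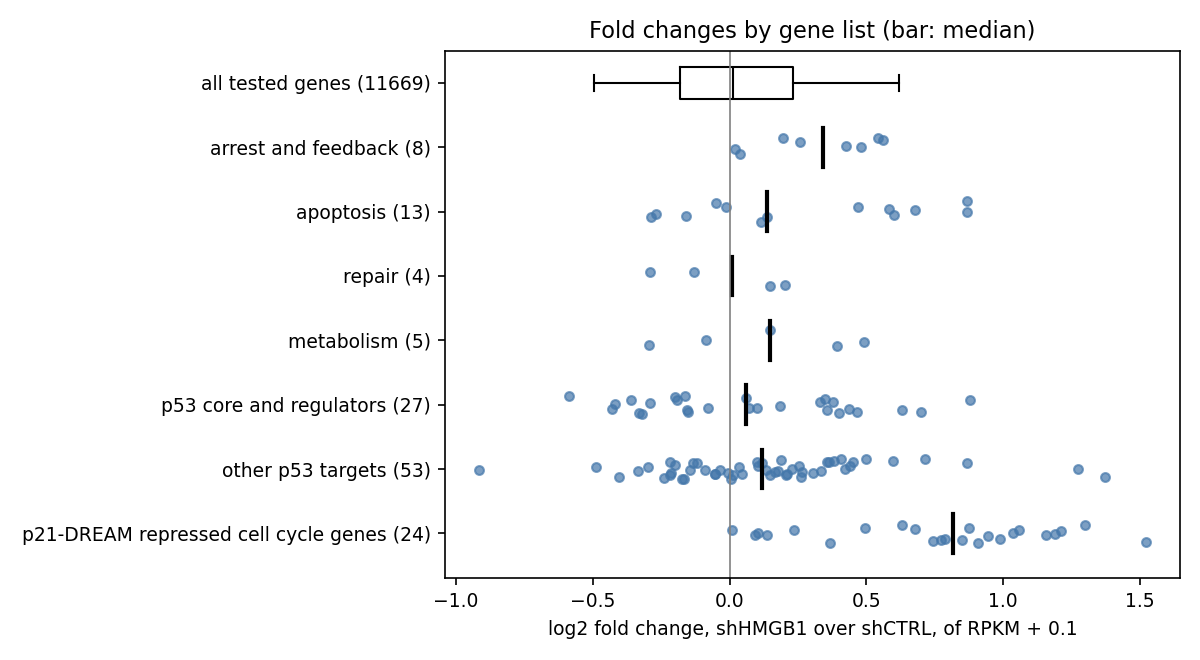
Log2 fold changes of RPKM + 0.1, shHMGB1 over shCTRL, for all 11669 tested genes (box between quartiles, whiskers from the fifth to the 95th percentile) and as points for each role group and related list, with a bar at the median. Medians are 0.34, 0.14, 0.01 and 0.15 for the role groups, 0.06 for regulators, 0.12 for other targets and 0.82 for the DREAM-repressed genes. Of the DREAM-repressed genes, 6 passed the filter only through shHMGB1.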

How the data were processed

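RNA-seq of 3 shCTRL and 3 shHMGB1 libraries was analysed. The authors' tools were edgeR, featureCounts, STAR 2.5.3a and Trimmomatic 0.32, per the submitters' processing notes, which name GRCm38 and mm10 as builds. The authors' deposited values are log2 RPKM, which were raised as powers of 2. Base 2 was checked from RPKM times gene length summed per library, 916811 to 1183969 with base 2 against at least 11834472 with base e, where the definition of RPKM gives a sum near that of base 2. The tests had been fixed for linear RPKM.

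Whole reads were recovered for 12132 of 12134 genes, by searching library sizes and gene lengths at which all 6 values, less a prior of 0.25 reads, were whole within 0.02 reads. With wrong library sizes this succeeded for 0 of 500 genes. Totals over the listed genes were 12869533 to 23429362 reads per library. In shCTRL A, shCTRL B and shHMGB1 C the recovered library size was below this total, in shCTRL B at 10871390 against 12869533. The library sizes behind the deposited RPKM are thus not plain read totals.

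limma 3.58.1 in R 4.3.3 was fitted to log2(RPKM + 0.1) of 11669 genes whose mean reached 0.5 RPKM, with group as the only term, eBayes with trend and robust, two-sided, and Benjamini-Hochberg adjustment over all genes at 0.05. The added 0.1 understates changes of low genes. An exact permutation test of 3 against 3 cannot give a p under 0.1. The code was tested on simulated data. No pair of libraries shared more than 2 identical values.

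All 30 members were named. From other lists the genes past the threshold were named or, with none, the 3 with the smallest p and the 3 most abundant, and always Trp53, Mdm4 and Ppm1d. A gene named by this rule is not reported here. Members and lists were chosen with earlier results of these data known. Gene positions are those of GENCODE M21. Alternatives were other pseudocounts, filters, scalings, variance and weight settings, a replicate block, voom, and leaving out each library.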

Additional observations from a re-analysis of the deposited data

How the results depend on the processing

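None of the 30 members was called under any of the 19 alternatives (18 members were tested with genes of at least 5 RPKM), and their lowest adjusted p over these was 0.146, for Ei24 with array quality weights. Of 558 member values under alternatives, 524 kept the sign of the log2 fold change, and 16 members kept it in all. The rescaling of libraries to equal sums counted the ribosomal RNA sequences as well. With it the all-gene median went from 0.01 to 0.36 and the members' to 0.52, the regulators' to 0.42 and the other targets' to 0.46. All members were then positive (30 of 30). The members' median was 0.13 after quantile normalization and 0.11 to 0.24 with a library left out. The filter of at least 5 RPKM left out the low genes of each list, so its medians are those of smaller sets. With it the regulators' median was -0.16 and the DREAM-repressed genes' 0.25. In limma with that filter 0 genes were called in all, and Hmgb1 (-2.73) had an adjusted p of 0.0546. With a library left out, the regulators' median ran from -0.075 to 0.10 and the other targets' from 0.036 to 0.21. The DREAM-repressed genes' median, with the limit of the filter given above, then ran from 0.39 to 1.08. Hmgb1 ran from -2.93 to -2.48 with a library left out, with limma adjusted p up to 0.247, and 0 to 8 genes were called. The other targets' median was 0.026 with the Rn18s-rs5 covariate. The count of genes called was 5 with equal sums, 5 with that covariate and 21 with array quality weights. It was 7 with the replicate block, which changed no member's call. Deviations of same-lettered libraries correlated at 0.15, -0.10 and 0.48 over genes, and not every library correlated best with its own letter, so the letters were not taken as pairs. The covariate and the deposited log2 values with nothing added were chosen after seeing the data. The cause of these differences was not tested. Depth limits Pidd1, Fas and Plk3 most, the members with the fewest reads in a library.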
